A study of Mus musculus with 6 samples.

Results

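The 10 immediate early AP-1 and EGR genes *Fos*, *Fosb*, *Jun*, *Junb*, *Jund*, *Egr1*, *Egr2*, *Egr3*, *Atf3* and *Ier2* were chosen by symbol among the 55367 genes listed, as fast response factors downstream of calcium and MAP kinase signals. All 10 had values and all 10 were tested. RNA-seq had been made from leukemia stem cells (LSCs), 3 WT libraries and 3 Piezo1cKO libraries, of mice 8 to 10 weeks of age with MLL-AF9 induced acute myeloid leukemia. PIEZO1 is a mechanosensitive channel of the cell membrane that lets calcium in. Piezo1cKO cells came from donors with loxP-flanked *Piezo1* and Mx1-Cre, an interferon-inducible Cre that is not restricted to leukemia cells, and WT cells came from *Piezo1* fl/fl littermates without Cre. Donors of both groups had been given pIpC, which switches Mx1-Cre on, and lineage-negative marrow cells of both carried the MLL-AF9 retrovirus with a YFP marker and were grown in irradiated C57BL/6 recipients. LSCs were sorted as lineage-negative, Sca-1 negative, c-Kit positive, CD34 positive, CD16/32 high and YFP positive cells, so both groups share the oncogene, the transplant and the sort. The labels do not say that the 3 libraries of a group came from separate animals, and p-values measure the spread between libraries, which may be technical.

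Immediate early genes are transcribed within minutes of a signal, without new protein synthesis, and their mRNAs are short-lived. AP-1 is a dimer of basic leucine zipper proteins, a JUN protein paired with a FOS, ATF or JUN protein, and it binds the site TGAGTCA, which reads TGACTCA on the other strand. The EGR proteins bind GC-rich sites through zinc fingers, and the NAB proteins bind to EGR proteins and repress their activity. In myeloid cells *Jun* and *Egr1* are known for their part in monocyte and macrophage differentiation. The same genes also rise when cells are dissociated or sorted.

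The targeted gene *Piezo1* had 104, 92 and 113 reads in the WT libraries and 35, 58 and 45 in the Piezo1cKO libraries, 45.9% of the WT level. It was lower in every Piezo1cKO library (deposited scale log2 fold change -0.29 ± 0.04 SE, limma adjusted p = 5.8e-06), and reads counted per gene do not show which exons they came from. The libraries held 14112218 to 15483604 reads on genes. Of the gate's own markers, *Kit* and *Cd34* were higher in Piezo1cKO cells (2522 to 3425 and 3721 to 5796 mean normalised reads), *Fcgr2b* was lower (3468 to 1667) and *Fcgr3* had 5405 against 5323. The groups differed at many genes: 10556 of 16746 genes passed an adjusted p under 0.05 on the deposited values, 63.0%, of which 50.2% were higher, or 60.5% of 10664 after each library was shifted to a common median, which moved fold changes by 0.022.

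The deposited values are regularized log2 values, which pull each library towards the gene's mean, most for genes with few reads. Whole reads were recovered from them. "Reads" below are these, "normalised reads" are reads divided by the library's size factor, and log2 fold changes (Piezo1cKO minus WT, ± SE) are given on the deposited scale first and on recovered reads second. A called gene has an adjusted p under 0.05 in limma across all genes, and a DEG also has an absolute log2 fold change over 1.

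Of the 10 genes, 6 were called higher in Piezo1cKO LSCs (*Fos*, *Fosb*, *Jun*, *Egr1*, *Egr2*, *Ier2*), 3 were called lower (*Jund*, *Egr3*, *Atf3*) and *Junb* was not called. Over all genes tested, 31.6% were called higher and 31.4% lower, so a call by itself is common in these libraries. The groups did not overlap for 9 of the 10 genes, against 66.6% of all genes tested. On the deposited scale 0 of the 10 were DEGs in limma, although 9 had an unadjusted p under 0.05, and 0.818% of all genes were. On recovered reads 9 of the 10 were called (all genes 63.0%) and 5 were DEGs (all genes 24.9%), *Egr1* and *Egr2* higher (all genes 12.6%) and *Jund*, *Egr3* and *Atf3* lower (all genes 12.3%). The median fold change of the 10 was 0.12 on the deposited scale and 0.24 on recovered reads, beside 0.00 and -0.01 over all genes tested. With so few members, these counts describe the list and were not tested. RNA of sorted cells in bulk cannot tell fewer cells with a transcript from less RNA per cell.

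**Figure D1:**
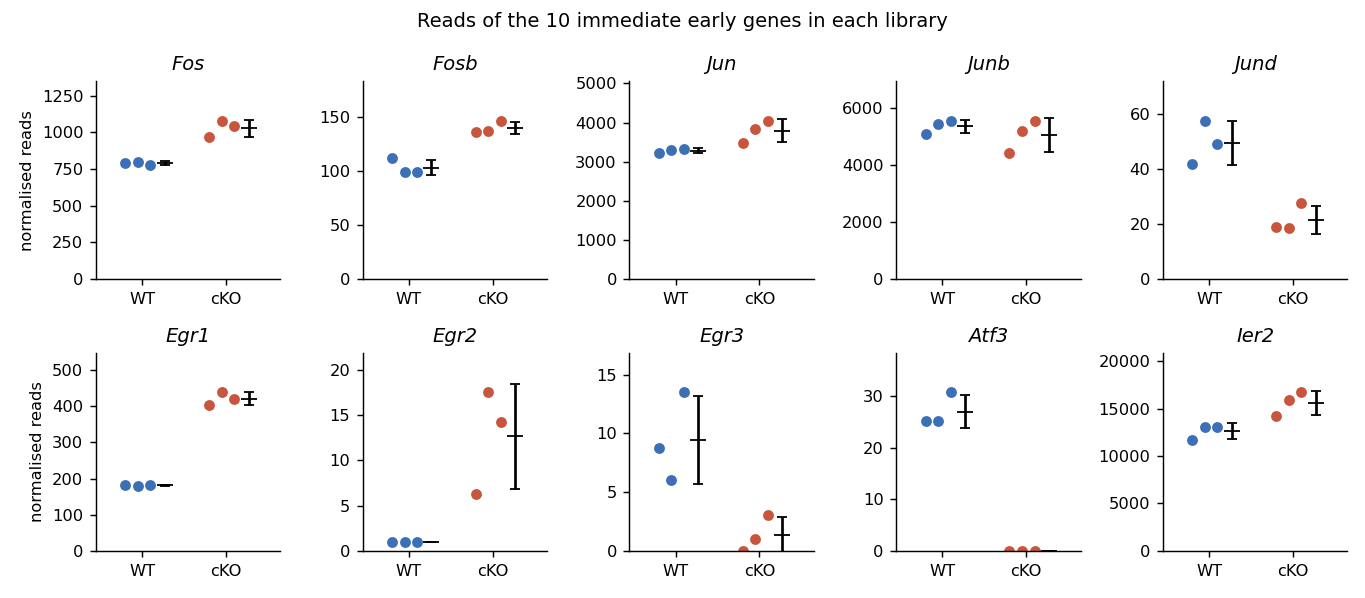
Normalised reads (linear axis from 0) of each of the 10 genes in the 3 WT (blue) and 3 Piezo1cKO (red, labelled cKO) libraries, one panel per gene, with points for libraries and black bars for mean ± SD. Only the *Junb* panel shows groups that overlap, and *Atf3* has 0 reads in all 3 Piezo1cKO libraries.

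The promoters of 3 members are given, as *Atf3* had no read in Piezo1cKO libraries, *Egr2* had 1 read in each WT library and *Fos* is the best known gene of the class. They are the 120 bases before the start, 5′ to 3′ in the sense of the gene, from RefSeq on GRCm38.p6, with motif letters in capitals. *Atf3* is at chr1:191183334-191183453 on the minus strand, *Egr2* at chr10:67537749-67537868 on the plus strand (the third of 5 starts listed) and *Fos* at chr12:85473770-85473889 on the plus strand.
Atf3: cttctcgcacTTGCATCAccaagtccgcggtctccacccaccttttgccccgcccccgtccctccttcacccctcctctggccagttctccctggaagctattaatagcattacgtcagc
Egr2: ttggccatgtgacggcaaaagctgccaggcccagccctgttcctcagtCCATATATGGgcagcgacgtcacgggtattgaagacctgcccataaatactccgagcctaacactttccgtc
Fos: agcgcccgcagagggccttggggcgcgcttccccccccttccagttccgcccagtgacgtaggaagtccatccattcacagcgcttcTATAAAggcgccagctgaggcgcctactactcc
The capitals in *Atf3* mark TTGCATCA, the other strand of the C/EBP-ATF element TGATGCAA, at -110 to -103 from the start. In *Egr2* they mark a CArG box, the letters bound by SRF, at -72 to -63. In *Fos* they mark TATAAA at -33 to -28.

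The motifs were looked for on both strands from 250 bases before to 50 bases after each start. Motifs farther from a start were not looked for, so no match does not mean that a gene lacks the motif. Of the 10 genes, 7 had an entry in the promoter table, all but *Egr1*, *Egr3* and *Ier2*. The start in the *Jund* entry follows base 70697738, well before the *Jund* gene start at 70698949 given below. The *Atf3* entry, at 191183334 to 191183453, lies inside the *Atf3* gene span of 191170296 to 191218039 given below. A CArG box (CC, then A or T at 6 positions, then GG) stood in 1.63% of 32817 mouse promoters and among the 7 genes in *Egr2*, where a second start also held one as CCTTTTTTGG. The element TGATGCAA stood in 0.896% of promoters, and among the members in *Atf3*. The EGR site (GCGTGGGCG or GCGGGGGCG) stood in 3.47% of promoters and in *Fosb* at -50 to -42. TATAAA stood in 13.6% of promoters, and in *Fos* and *Junb*. In *Junb* it stood at 0 to 5 from the start, and not before the start as in *Fos*. The CRE TGACGTCA (1.79% of promoters) and the AP-1 site TGAGTCA, or TGACTCA on its other strand (5.2%), matched in no member's window. A match is a run of letters and not a measured site.

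*Fos* encodes the founding FOS subunit of AP-1 (chromosome 12, 85473890 to 85477273, plus strand, GRCm38, GENCODE M21, as for all genes below). It had 818, 793 and 805 reads in the WT libraries and 924, 1107 and 1024 in the Piezo1cKO libraries. Each Piezo1cKO library was above every WT library, at 1029 ± 58 against 789.5 ± 13.4 normalised reads (SD, n = 3 each), 1.3-fold. The log2 fold change was 0.25 ± 0.03 (limma adjusted p = 5.75e-06) and on recovered reads 0.37 ± 0.05 (limma-voom adjusted p = 1.92e-05).

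*Fosb*, whose protein takes the same place in the dimer (chromosome 7, 19302696 to 19310051, minus strand), had 115, 98 and 103 reads in WT and 130, 141 and 144 in Piezo1cKO libraries. The groups did not overlap, and the level was 1.36-fold higher. Its log2 fold change was 0.15 ± 0.04 (limma adjusted p = 0.0016) and 0.43 ± 0.11 on recovered reads (limma-voom adjusted p = 0.0043).

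*Jun*, the JUN subunit with the strongest transactivation (chromosome 4, 95049034 to 95052222, minus strand, a single exon), had 3329, 3261 and 3469 reads in WT and 3321, 3941 and 3979 in Piezo1cKO libraries. After division by size factors the groups did not overlap, but Piezo1cKO replicate 1, at 3469 normalised reads, stood close to the highest WT library at 3337. The fold was 1.15, with log2 fold changes of 0.14 ± 0.03 (limma adjusted p = 0.000881) and 0.19 ± 0.05 on recovered reads (limma-voom adjusted p = 0.00205).

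*Junb*, which can oppose JUN and is known as a brake on myeloid proliferation (chromosome 8, 84974484 to 84978718, minus strand), was the member that was not called. It had 5265, 5404 and 5756 reads in WT and 4222, 5335 and 5463 in Piezo1cKO libraries. The ranges overlap, since only Piezo1cKO replicate 1 lay below the WT libraries. The log2 fold change was -0.07 ± 0.04 (limma adjusted p = 0.178) and -0.10 ± 0.06 on recovered reads (limma-voom adjusted p = 0.145). Without Piezo1cKO replicate 1 it was 0.00257 (limma adjusted p = 0.945), and without Piezo1cKO replicate 3 it was -0.12 (limma adjusted p = 0.0308), so the direction of *Junb* rests on single libraries. With a replicate block in the model *Junb* was called lower on both scales, as given in the closing section.

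*Jund*, the JUN subunit usually present in resting cells (chromosome 8, 70698949 to 70700616, plus strand), had 43, 57 and 51 reads in WT and 18, 19 and 27 in Piezo1cKO libraries. Each Piezo1cKO library was below every WT library, at 21.6 ± 5.09 against 49.4 ± 7.91 normalised reads (SD, n = 3 each), 43.7% of WT. The log2 fold change was -0.18 ± 0.03 (limma adjusted p = 0.00023) and -1.20 ± 0.24 on recovered reads (limma-voom adjusted p = 0.000505). The antisense gene *Gm11175* covers 52.6% of the exon bases of *Jund* and is listed at 0 in all 6 libraries. Whether reads were counted by strand is not given in the sources used here, so reads of such shared bases cannot be assigned to one of the genes, and the level of *Jund* is uncertain. For *Jun* (*Junos*, 7.3%) and *Junb* (*Prdx2*, 7.5%) the overlap is small.

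*Ier2*, a short nuclear protein gene of the same immediate early class (chromosome 8, 84661331 to 84662852, minus strand), had the most reads of the 10, with 12017, 12959 and 13615 in WT and 13642, 16311 and 16413 in Piezo1cKO libraries. The groups did not overlap in normalised reads, at 15617 ± 1249 against 12612 ± 824.6 (SD, n = 3 each), 1.24-fold. The log2 fold change was 0.23 ± 0.03 (limma adjusted p = 1.9e-05) and 0.30 ± 0.05 on recovered reads (limma-voom adjusted p = 0.000103).

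*Egr1*, an EGR factor known from monocyte differentiation (chromosome 18, 34859823 to 34864984, plus strand), had the largest fold of the members with over 50 reads in every library. It had 189, 178 and 189 reads in WT and 386, 450 and 414 in Piezo1cKO libraries. The groups were far apart, at 421.0 ± 17.7 against 181.6 ± 1.89 normalised reads (SD, n = 3 each), 2.32-fold. The log2 fold change was 0.62 ± 0.04 (limma adjusted p = 5.49e-11), short of the DEG threshold, and 1.20 ± 0.08 on recovered reads (limma-voom adjusted p = 4.47e-09), past it.

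*Egr2*, an EGR factor known from macrophages and lymphocytes (chromosome 10, 67535475 to 67542188, plus strand), had 1 read in each WT library and 6, 18 and 14 in the Piezo1cKO libraries. All 3 Piezo1cKO libraries were above WT, with totals of 38 against 3 reads. The ratio was 12.9, with an exact (Clopper-Pearson) 95% interval from 4.15 to 66.2 that covers counting error only, as reads are not independent molecules. The deposited scale reduced this to a log2 fold change of 0.09 ± 0.02 (limma adjusted p = 0.000678). On recovered reads it was 3.05 ± 0.60 (limma-voom adjusted p = 0.000417).

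*Egr3* (chromosome 14, 70077203 to 70082614, plus strand), a close relative that is itself induced by calcium signals in lymphocytes, moved the other way. It had 9, 6 and 14 reads in WT and 0, 1 and 3 in Piezo1cKO libraries. The WT level was 7.02 times that of Piezo1cKO, with an exact 95% interval from 2.47 to 27.5. The log2 fold change was -0.06 ± 0.02 (limma adjusted p = 0.0027) and -2.77 ± 0.65 on recovered reads (limma-voom adjusted p = 0.00174). *Egr2* and *Egr3* thus had opposite calls at low levels, with 38 reads or fewer in a whole group.

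*Atf3*, a stress-induced zipper protein that pairs with JUN and is also a target of ATF4 (chromosome 1, 191170296 to 191218039, minus strand), had 26, 25 and 32 reads in WT and 0 in each Piezo1cKO library. Every WT library was above every Piezo1cKO library, and *Atf3* was the member without a read in a group. The WT level was 26.8 times a floor of 3 reads over the Piezo1cKO group. That is not a lower bound, as the exact 95% interval used for *Egr2* and *Egr3* begins at 21.3-fold. The deposited values differed by only -0.21 ± 0.02 (limma adjusted p = 2.91e-07), since their pull is strong at this level, and the test on recovered reads gave a limma-voom adjusted p of 3.21e-07.

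**Figure D2:**
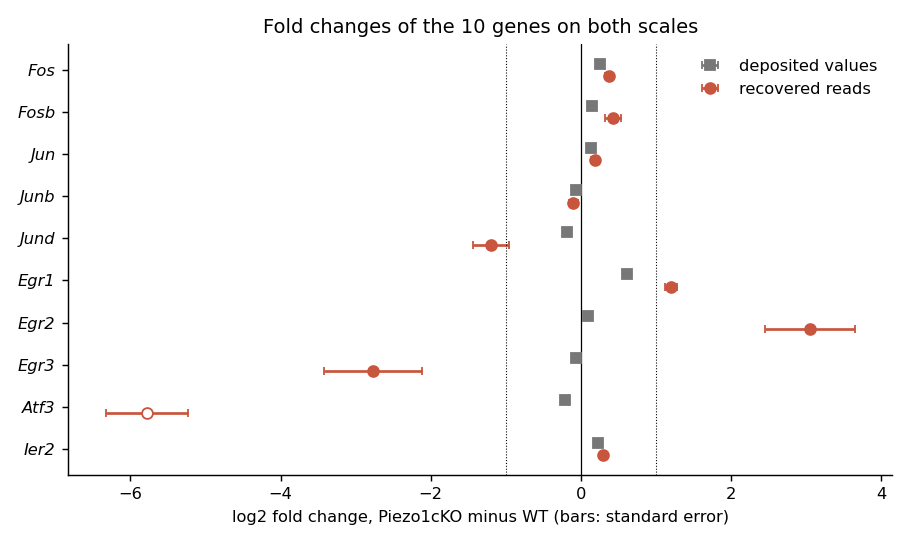
Log2 fold change (Piezo1cKO minus WT) of the 10 genes with standard errors, on the deposited values (grey squares) and on recovered reads (red circles), with dotted lines at -1 and 1. The open circle is *Atf3*, whose fitted value rests on 0 reads in one group and is not a measured fold. No square passes a dotted line, while 5 circles do.

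Leaving out each library in turn changed no call of the 9 called members on either scale. Among the Piezo1cKO libraries, replicate 1 was the lowest in normalised reads for 8 of the 9 members with any read there. All 9 called members kept their direction and call under a common median of the libraries and under library totals.

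Levels between genes were compared as RPKM, recovered reads scaled to exon length and to the library's reads on genes. In WT LSCs the order was *Ier2* (555.9 ± 37.6, SD, n = 3), *Junb* (156.4 ± 6.96), *Jun* (69.1 ± 1.26), *Fos* (22.5 ± 0.384), *Egr1* (2.72 ± 0.0224), *Jund* (1.99 ± 0.322), *Fosb* (1.11 ± 0.0754), *Atf3* (0.843 ± 0.101), *Egr3* (0.143 ± 0.0572) and *Egr2* (0.0194 ± 0.000524). No neighbours in this order overlapped across the 3 libraries. The place of *Jund* depends on the exon bases counted. Over the 791 bases it does not share with *Gm11175* its mean would be 4.19 ± 0.68 in WT, above that of *Egr1*. In Piezo1cKO libraries it would be 1.85 ± 0.438, above the mean of *Fosb*. *Fosb* has 6243 exon bases, against 3782 in its longest transcript, so its level depends on the bases counted as well. In Piezo1cKO LSCs the upper places were the same down to *Egr1* (6.38 ± 0.274), followed by *Fosb* (1.52 ± 0.0641), *Jund* (0.88 ± 0.208), *Egr2* (0.254 ± 0.116), *Egr3* (0.0207 ± 0.0241) and *Atf3* at 0. There *Egr3* and *Atf3* were the neighbours that overlapped.

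The summed level of the JUN genes on this scale was 227.6 ± 8.44 in WT and 230.8 ± 24 in Piezo1cKO libraries (SD, n = 3 each), ranges that overlap. *Jun* made up 30 to 31.1% of it in WT and 34.3 to 36.1% in Piezo1cKO libraries. The FOS genes (*Fos*, *Fosb*, *Fosl1*, *Fosl2*) summed to 29.9 ± 0.661 and 34.5 ± 1.87, of which *Fos* was 74.9 to 75.7% and 85.8 to 86.3%. The EGR sum was 2.88 ± 0.0714 in WT and 6.65 ± 0.399 in Piezo1cKO libraries, and *Egr1* was at least 92.4% of it in every library. These sums were not tested. They show JUN transcripts in excess of FOS transcripts, and FOS transcripts in excess of EGR transcripts, in both groups.

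**Figure D3:**
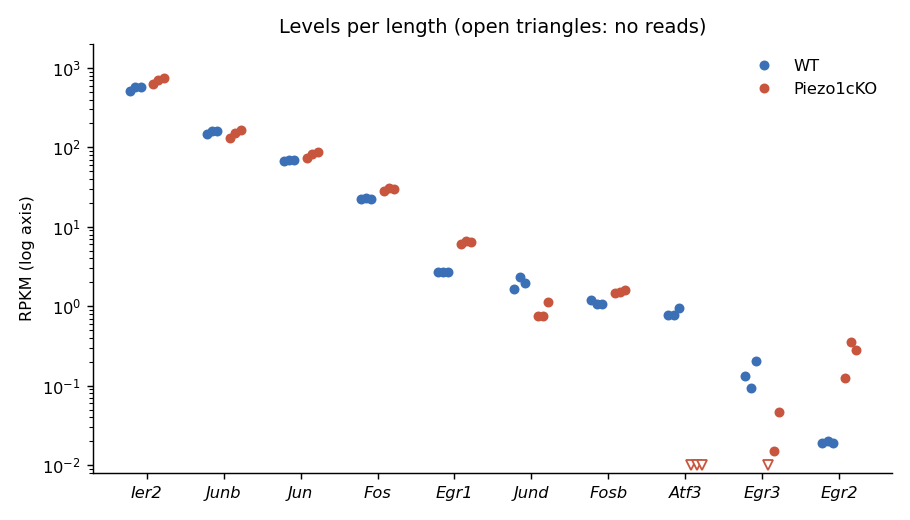
RPKM (recovered reads scaled to exon length and library total, log axis) for the 10 genes in order of their WT level, with 1 point for each WT (blue) and Piezo1cKO (red) library. Open triangles at the bottom stand for libraries without a read, 3 for *Atf3* and 1 for *Egr3*, and the top 5 places are the same in both groups.

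Among the paralogs and dimer partners, 9 genes were listed, *Egr4* was at 0 in all libraries, *Jdp2* had 4 reads in WT and 1 in Piezo1cKO libraries and was not tested, and 2 of the 7 tested were called higher and 4 lower on the deposited scale. *Fosl1*, which encodes the FOS-related FRA-1, had 89, 89 and 87 reads in WT and 0, 1 and 2 in Piezo1cKO libraries. The WT level was 86.3 times higher, with an exact 95% interval from 29 to 417.7 (log2 fold change -0.59 ± 0.03, limma adjusted p = 1.44e-11). *Fosl1* thus fell while *Fos* and *Fosb* rose. *Fosl2*, which encodes FRA-2, had 494.4 ± 24.8 against 462.8 ± 19.9 normalised reads (SD, n = 3 each), and its ranges overlapped.

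*Atf2*, a partner of JUN that MAP kinases activate, fell from 1161 ± 63.8 to 768.5 ± 49.1 normalised reads (SD, n = 3 each). Its relative *Atf7* fell from 893.5 ± 24.2 to 765.2 ± 20.4. *Batf*, which pairs with JUN in place of FOS, rose from 264.8 ± 14.4 to 330.6 ± 42.1. *Batf2* (16.9 ± 4.5 to 9.13 ± 1.32) and *Batf3* (9.41 ± 6.02 to 19.2 ± 1.9) were called in opposite directions at low levels. The call of *Batf3* was lost without WT replicate 1, WT replicate 2 or Piezo1cKO replicate 3 (highest limma adjusted p = 0.101), and that of *Batf2* without WT replicate 3 or without any of the 3 Piezo1cKO libraries (highest limma adjusted p = 0.174). On recovered reads the call of *Batf* was lost without WT replicate 3, Piezo1cKO replicate 2 or Piezo1cKO replicate 3 (highest limma-voom adjusted p = 0.0732).

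Both EGR co-repressors fell. *Nab1* had 418, 445 and 398 reads in WT and 131, 94 and 107 in Piezo1cKO libraries, 27.3% of the WT level (log2 fold change -0.90 ± 0.05). *Nab2*, which is itself a target of EGR factors, had 330, 326 and 321 reads in WT and 17, 28 and 8 in Piezo1cKO libraries, 5.55% of the WT level (log2 fold change -1.38 ± 0.04). On recovered reads the fold changes were -1.90 ± 0.13 for *Nab1* (limma-voom adjusted p = 4.7e-09) and -4.29 ± 0.28 for *Nab2* (limma-voom adjusted p = 3.89e-09). *Egr1* was higher and both of its repressors lower in the same libraries, and a link between them was not tested.

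**Figure D4:**
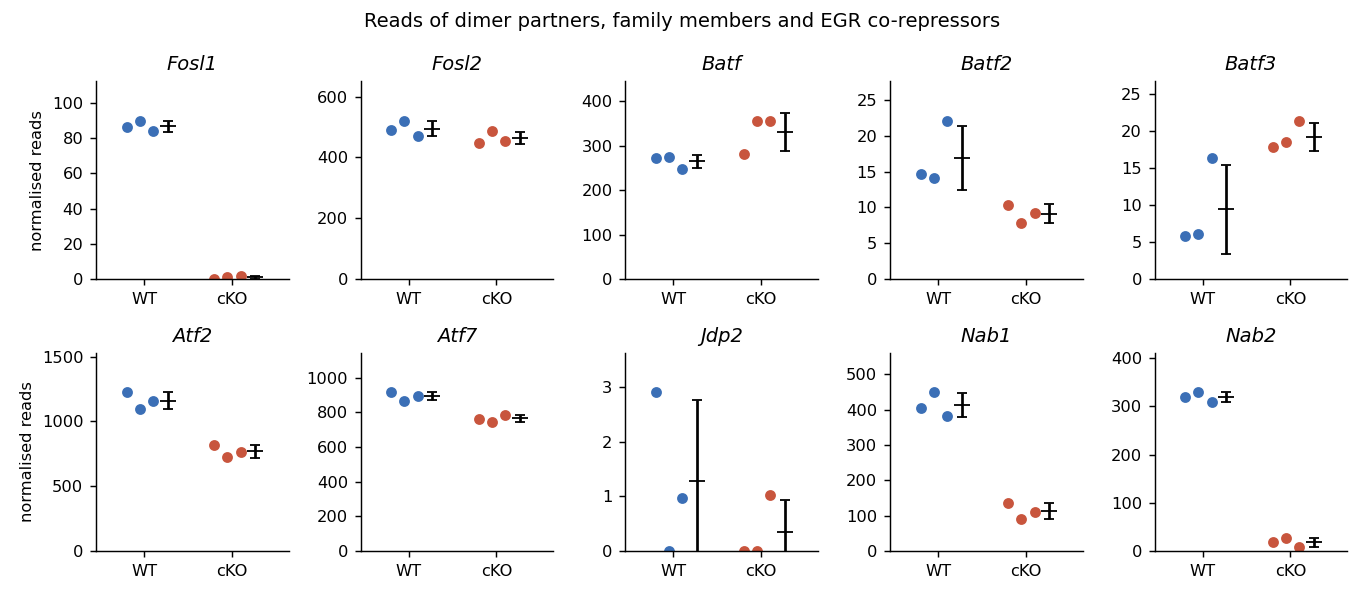
Normalised reads (linear axis from 0) of 8 family members or dimer partners and of the co-repressors *Nab1* and *Nab2* in the 3 WT (blue) and 3 Piezo1cKO (red, labelled cKO) libraries, with black bars for mean ± SD, which are cut off at 0. *Fosl1*, *Nab1* and *Nab2* stand far below WT, and the groups overlap for *Fosl2* and *Jdp2*.

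The other immediate early genes did not move one way. Of 37 tested, 14 were called higher and 16 lower on the deposited scale (9 higher without WT replicate 1), with a median log2 fold change of -0.01, beside 0.00 for all genes. *Gem*, a small GTPase, rose from 80.9 to 244.7 mean normalised reads (n = 3 each here and below). *Bhlhe40*, a transcriptional repressor, fell from 421.0 to 61.5. *Errfi1*, an inhibitor of EGF receptor signals, fell from 148.8 to 30.2, and *Klf2*, a zinc finger factor, from 162.8 to 51.8. Their log2 fold changes on recovered reads were 1.58, -2.80, -2.29 and -1.66.

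The factors that switch immediate early genes on were called in both directions, 9 higher and 8 lower of 20. *Srf*, whose protein binds the CArG box, rose from 42.8 to 78.2 normalised reads and its partner *Elk1* from 93.4 to 163.5. Of the kinases that act on CREB and chromatin, *Rps6ka3* rose from 26.1 to 76.3 and *Rps6ka4* fell from 322.4 to 190.8. In the MAP kinase cascade, 8 of 30 genes tested were called higher and 14 lower. *Mapk14*, which encodes p38 alpha, fell from 1474 to 465.5 and *Map2k2* from 1091 to 752.5, while *Map3k1*, a kinase upstream of JNK, rose from 10051 to 15763.

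Among the MAP kinase phosphatases and feedback inhibitors, 4 of 17 were called higher and 8 lower. *Dusp1*, an immediate early phosphatase of p38 and JNK, rose from 1323 to 2366 normalised reads, *Spry2* from 3561 to 7859 and *Dusp7* from 39.6 to 85.2, whereas *Dusp5*, a phosphatase of nuclear ERK, fell from 95.2 to 18.7. Of 19 calcium-calmodulin and calcineurin-NFAT genes, 7 were called higher and 8 lower. *Camk2a* (126.2 to 370.8) and *Camk1d* (78.8 to 277.2) rose, and *Camk2b* (173.4 to 27.3) and *Rcan1* (215.5 to 46.9), a calcineurin inhibitor induced by NFAT, fell.

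The textbook targets of AP-1 or EGR factors were called lower in 9 of 12 cases and higher in 2, with a median log2 fold change of -0.14 in the deposited values and -1.28 on recovered reads. The urokinase receptor gene *Plaur* fell from 8572 to 2553 normalised reads and *Spp1*, which encodes osteopontin, from 317.5 to 77.2. Fibronectin (*Fn1*, 24.5 to 284.8) and cyclin D1 (*Ccnd1*, 91.7 to 268.5) rose. These genes have many other regulators.

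The ATF4 driven stress response, to which *Atf3* also belongs, was called lower in 11 of 12 genes and higher in 0, with a median log2 fold change of -1.14 in the deposited values. In limma-voom on recovered reads 11 were lower and 0 higher as well, and at an unadjusted p under 0.05 none of the 12 was higher in either fit. *Nupr1* fell from 714.8 to 0.664 normalised reads, *Trib3* from 1556 to 17.6, *Chac1* from 301.0 to 4.39 and *Cebpb* from 949.6 to 34.4. *Atf3*, *Jund* and *Egr3* had the direction of this list, and *Fos*, *Fosb*, *Jun*, *Egr1*, *Egr2* and *Ier2* had the opposite one. A link was not tested.

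**Figure D5:**
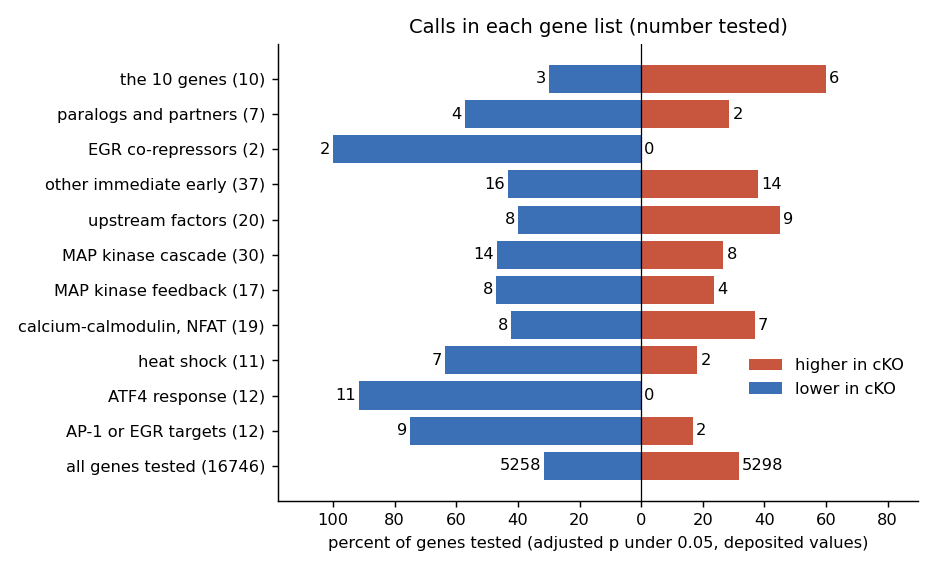
Percent of the tested genes of each list called higher (red, right) or lower (blue, left) in Piezo1cKO LSCs on the deposited values, with the number of calls at each bar and the number tested in parentheses. The 10 genes have 6 calls to the right and 3 to the left, the ATF4 response has 11 to the left and 0 to the right, and all genes tested are split nearly evenly.

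Immediate early genes also rise during tissue handling, and heat shock genes were taken as a second sign of it. Of 11 tested, 2 were called higher and 7 lower in Piezo1cKO libraries. The summed level of the list was 3037 to 3124 CPM (reads scaled to the library total) in WT and 2621 to 2758 in Piezo1cKO libraries. *Hspa8*, with the most reads of the list, weighs most in this sum. *Hspa1a* had few reads, at 26.2, 20.2 and 35.6 normalised reads in WT and 18.8, 20.5 and 18.3 in Piezo1cKO libraries, ranges that overlap. *Hspa1b* had at most 1.95 normalised reads in any library. *Bag3* fell from 262.8 to 157.8 normalised reads, *Hsph1* from 1603 to 1130, *Hspd1* from 5219 to 3821 and *Hsp90ab1* from 10657 to 8389. The 2 that rose, as the members *Fos* and *Jun* did, were *Hsp90aa1* from 944.4 to 1191 and *Dnajb1* from 3725 to 4434. The part of cell handling in the members' values was not tested.

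Markers of myeloid and other cell types moved as well. Of 9 mast cell and basophil markers, 8 were called higher and 0 lower by limma, and by limma-voom on recovered reads also 8 and 0, with 0 lower at an unadjusted p under 0.05 in both. Their summed level was 335.3 to 353.1 CPM in WT and 1079 to 1088 in Piezo1cKO libraries, with *Cpa3* at 565.3 and 5003 and *Hdc* at 816.4 and 3693 normalised reads. The defining mast cell gene *Cma1* had no read in WT and 23, 20 and 17 in Piezo1cKO libraries. Neutrophil markers summed to 34291 to 37255 and 17682 to 19234 CPM (1 of 11 tested higher, 8 lower). The granule genes *Mpo* and *Elane* made up 96.8 to 97% of the sum in every library. Without *Mpo* and *Elane* the sum was 1076 to 1138 in WT and 551.4 to 612.7 CPM in Piezo1cKO libraries. *Prtn3* weighs most in this remainder, with 13445 to 14373 normalised reads in WT and 7091 to 8000 in Piezo1cKO libraries. A share of neutrophils among the sorted cells cannot be read from these sums. *S100a9* fell from 261.6 to 6.09 normalised reads, while *Mmp8* rose from 42.5 to 633.5. Monocyte and macrophage markers summed to 1218 to 1256 and 950.4 to 971.3 (5 of 10 higher, 2 lower). *Cd14* fell from 6175 to 443.5 normalised reads, and without it the sum was 812.1 to 843.9 and 922.0 to 938.0 CPM. *Ccr2* rose from 547.6 to 1233 and *Cd68* from 3685 to 4585, *Cx3cr1* fell from 365.8 to 295.5, and *Csf1r* was at 1373 ± 64.8 and 1320 ± 74.1 (SD, n = 3 each). *C1qc* was at 0 in each WT library and at 21.9, 28.3 and 15.3 normalised reads in the Piezo1cKO libraries. *C1qb* was at 0, 2.02 and 0 against 6.27, 16.6 and 10.2, and *Mrc1* at 0 in WT against 8.36, 6.82 and 17.3. *Marco* was at 0, 1.01 and 0 in WT and at 0 in Piezo1cKO libraries. Dendritic cell markers summed to 57.3 to 60.9 and 121.5 to 123.4 (5 of 7 higher, 2 lower). *Flt3* rose from 647.7 to 1606 normalised reads and *Zbtb46* fell from 180.9 to 74.6, and without *Flt3* the sum was 15.8 to 16.5 and 11.3 to 15.4 CPM. On recovered reads 6 of 8 were DEGs higher (all genes 12.6%) and 2 lower (all genes 12.3%). Besides *Flt3*, those higher were *Clec9a*, *Siglech*, *Cd209a*, *Itgax* and *Xcr1*, all at low levels. *Xcr1* had 21.3, 12.1 and 19.2 normalised reads in WT and 50.1, 72.1 and 61.1 in Piezo1cKO libraries. *Ccr7* had 27.2, 26.2 and 27.9 in WT and 0 in Piezo1cKO libraries.

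The T cell receptor subunit gene *Cd3e* had 1 read in all, and the globin gene *Hbb-bs* had at most 6 reads in a library. The B cell list as a whole summed to 817.7 to 845.8 and 1520 to 1542 CPM (3 of 4 tested higher), nearly all of it *Ighm* and *Cd79b*. T and NK markers summed to 0.517 to 1.1 and 3.47 to 4.5 CPM (2 of 3 tested higher, 1 lower), where *Klrb1c* had no read in WT and 32, 38 and 52 in Piezo1cKO libraries and *Trac* had 5, 2 and 2 against 17, 16 and 13. Erythroid markers summed to 8.63 to 10.4 and 3.04 to 3.47 CPM (2 of 5 tested lower). The erythroid factor *Klf1* fell from 79.4 to 20.5 normalised reads and *Epor* from 33.8 to 9.45. The part of these shifts in the values of the 10 genes was not tested.

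The genes whose deposited values most resembled those of *Fos* over the 6 libraries, out of 10256 genes whose mean reached 50 reads, were *Spop* (Pearson r = 0.9982), *Mboat7* (0.9978), *Iffo1* (0.9972), *BC043934* (0.9969) and *Romo1* (0.9967). For *Egr1* they were *Gng11* (r = 0.9999), *H2-K2* (0.9998), *Slc27a1* (0.9998), *Inpp5k* (0.9994) and *H2-DMa* (0.9993). None of these 10 is a member of the class. An r above 0.95 was reached by 1178 genes with *Fos* and by 1720 with *Egr1*. All points share the 6 libraries and their split into 2 groups, so the likeness is a description.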

How the data were processed

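The 10 members and all gene lists were chosen with earlier results of these data known. RNA of sorted LSCs was made into Smart-seq2 based libraries with Tn5 and sequenced as paired ends. The authors used fastp (version 0.20.1) for trimming, HISAT2 (version 2.2.1) for mapping to GRCm38, featureCounts (version 2.0.1) for counts per gene and DESeq2 (version 1.28.1) for normalization. The deposited table holds log2 values that take the shape of a regularized log. Of 55367 genes, 28965 are listed at 0 in all 6 libraries.

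The transform was inverted to whole reads, 99.9% of which lay within 0.1 of a whole number (23.9% with its ridge parameter set 10% off), and 99.94% of the deposited values were returned within 0.001. Libraries held 14112218 to 15483604 reads on genes. Pairs of libraries of a group differed by a mean chi-square of 1.38 to 1.5 per gene, where counting error alone gives 1, so none was a copy of another. Pairs across the groups differed by 12.89 to 13.46. The small spread within a group does not show whether its libraries came from separate animals.

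Genes with a mean of at least 1 (16746) entered a limma fit (limma 3.58.1 in R 4.3.3) of lmFit with a trended eBayes and no covariate, two-sided, with Benjamini-Hochberg adjustment. Recovered reads of 17352 genes with at least 10 in total were fitted with limma-voom and TMM scaling. Both fits and the inversion were tested on simulated data. Exact permutation of 3 against 3 libraries cannot go below p = 0.1.

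All members, paralogs and co-repressors were named, and of other lists at most 4 called genes with a mean of at least 50 reads, by size of change on recovered reads, apart from genes not reported here. *Gm11175*, *Junos*, *Prdx2* and *Cma1*, *Csf1r*, *Cd3e*, *Hbb-bs*, *Mpo*, *Elane*, *Klrb1c*, *Trac*, *Epor*, *Hsp90aa1* and *Dnajb1* were added as overlapping genes or list members after their values were seen, as were sums without the leading genes of a list. The same holds for *Prtn3*, *C1qb*, *C1qc*, *Mrc1*, *Marco*, *Xcr1*, *Clec9a*, *Siglech*, *Cd209a*, *Itgax*, *Ccr7*, *Hspa1a*, *Hspa1b* and *Hspa8*. Exon lengths came from GENCODE M21. Alternatives were other filters, a common median, library totals, no trend, a replicate block, a test against a 2-fold change and each library left out.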

Additional observations from a re-analysis of the deposited data

How the results depend on the processing

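Of 117 member fold changes under alternatives on the deposited scale, 114 kept their direction and their side of the threshold, and of 96 on recovered reads 94 did. The exceptions were all *Junb*: without Piezo1cKO replicate 1 it was 0.00257 in place of -0.07, and it was called under the replicate block (-0.0662, limma adjusted p = 0.0017) and without Piezo1cKO replicate 3 (-0.118, limma adjusted p = 0.0308). On recovered reads the same 2 settings gave calls at -0.099 and -0.174. Members called lower fell from 3 to 1 with a mean value of at least 5, and member DEGs on recovered reads from 5 to 1 with a mean of at least 50 reads, because the other genes were no longer tested. The number of DEGs over all genes was 137 on the deposited values, 4315 on recovered reads and 91 in a test against a 2-fold change. The labels do not say whether the replicate numbers pair the libraries, and the main fits used no pairing. Deviations of same-numbered WT and Piezo1cKO libraries correlated at 0.24, 0.2 and 0.09 over 10256 genes. Each library correlated best with its own number, and whether the numbers mark a pairing was not tested. A replicate block gave 11055 calls over all genes in place of 10556. Genes with few reads (*Egr2*, *Egr3*, *Atf3*, *Jund*) limit what fold can be given.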
